A study of Rattus norvegicus with 18 samples.

Results

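Cytosolic ribosomal protein genes encode the protein components of the large and small subunits of the ribosome. They were found here by their symbols: probe sets carrying a single platform symbol of the form Rpl or Rps followed by a number, or the names Rplp0, Rplp1, Rplp2 or Rpsa, were taken, and S6 kinase genes, mitochondrial ribosomal protein genes and uncharacterised loci were left out. The rule gave 48 genes, measured by 55 of the 31099 probe sets on the array, of which 33 belong to the large subunit and 15 to the small subunit. No measured value entered the rule. A further 36 ribosomal probe sets carry several symbols and are not members.

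The study measured gene expression in rats on 18 one-colour arrays, 9 from subcutaneous abdominal fat and 9 from the hypothalamus, with 3 arrays in each of 6 groups. Roux-en-Y gastric bypass (RYGB) joins a small stomach pouch to a lower stretch of intestine. RYGB-Success marks rats that were losing weight after the operation, RYGB-Fail marks rats that were putting weight back on, and Pair-Fed rats were given as much food as the treated rats ate, and their labels name no operation. Strain, age, sex and time after surgery are not given in the sources used here, and the design text calls the samples biological replicates without tying them to animals, so p-values measure the spread between these samples.

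A ribosome is assembled in the nucleolus from ribosomal RNA and about equal amounts of each ribosomal protein, and free ribosomal proteins are degraded, so the genes are usually expressed together. Their mRNAs are among the most abundant in most cells and commonly begin with a C followed by a run of pyrimidines, the terminal oligopyrimidine or TOP motif, through which mTOR signalling and the protein Larp1 control how much of the mRNA is translated. That control acts on translation, which an array does not measure. A few members have paralogs with narrower expression: Rpl3l replaces Rpl3 in mature skeletal and heart muscle, Rps27l is a p53-induced relative of Rps27, and Rpl7l1 acts in nucleolar ribosome assembly.

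Sequences around the annotated start sites are shown because the shared pyrimidine run is a feature that the choice of members did not use. Of the 48 genes, 43 had an entry among the RefSeq promoter sequences of the GRCr8 assembly. The lines give 15 bases before and 15 bases from the start site on, read 5′ to 3′ on the gene's strand, and capitals mark the longest run of C and T that reaches within 10 bases of the start.
Rplp0, chr12:46718376-46718405, minus strand: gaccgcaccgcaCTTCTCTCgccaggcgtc
Rpl22, chr5:168117946-168117975, plus strand: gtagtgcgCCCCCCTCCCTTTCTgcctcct
Rpl34, chr2:221962269-221962298, minus strand: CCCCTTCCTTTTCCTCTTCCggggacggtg
Rpl39, chrX:121195882-121195911, minus strand: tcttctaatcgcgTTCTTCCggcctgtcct
Rps15, chr7:10068101-10068130, minus strand: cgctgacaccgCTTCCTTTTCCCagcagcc
Rps6, chr5:106420526-106420555, minus strand: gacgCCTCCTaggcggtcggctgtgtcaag
Rpl3, chr7:113507976-113508005, minus strand: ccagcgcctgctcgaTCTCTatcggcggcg
Rpl41, chr7:1563483-1563512, minus strand: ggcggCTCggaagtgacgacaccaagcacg
Rps27l, chr8:76443643-76443672, plus strand: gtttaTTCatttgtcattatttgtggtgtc
Rpl7l1, chr9:21695703-21695732, plus strand: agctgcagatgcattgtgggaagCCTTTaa
The first 5 genes begin with C and at least 4 further pyrimidines at the annotated start, and the last 5 do not. Rps27l and Rpl7l1 are paralogs, and their longest runs are 3 and 5 bases.

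A start of C and at least 4 pyrimidines was found in 12 of the 43 genes (27.9%), against 2.63% of the 33469 starts in the table. A run of at least 8 pyrimidines near the start was found in 27 genes (62.8%), against 13.2% of all starts, and the median longest run was 9 bases against 4. The 6-base motif CCGGAA was searched on both strands of the longer promoter sequences, which hold 250 bases before the start and 50 after. It can overlap such runs where it reads ttccgg. The motif was in 39.5% of member sequences and 15% of all, and it was chosen after the data were seen. The pyrimidine starts and runs are matches in short windows at annotated starts, which can lie some bases from the start in use. The 12 genes with the TOP-type start had a median fat minus hypothalamus difference of 1.07 on the log2 scale and the other 31 had 1.14, with no test made. The 46 genes with a RefSeq position lie on 15 chromosomes, with 8 on chromosome 1.

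The deposited values are linear signals, and each array's 2% trimmed mean lay between 500.13 and 500.2, so the arrays had been brought to a common level. All differences below are differences of log2 signal ± SE. Between 1 gene and another, probe set signals do not measure relative abundance, so levels are compared only between arrays. Most members are among the brightest probe sets: in fat 37 of 48 genes and in hypothalamus 34 of 48 lay above the 95th percentile of all probe sets. At the other end, Rpl3l, Rpl26l1, Rpl28 and Rps4y2 were too dim in both tissues for the filter, which tested the upper 60% of probe sets by mean signal. It passed 51 of the 55 member probe sets, for 44 genes, in each tissue. In dim probe sets the log2 signal scatters widely, and their differences are given as values only. Rpl28, Rpl30 and Rps13 are also named by probe sets with several symbols, which are not members. The values given for these genes are those of their single-symbol probe sets.

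The arrays carried the markers of their labelled tissue. The level of a marker list is the mean log2 signal of its genes. Adipocyte markers lay at 10.96 to 12.56 on fat arrays and 3.96 to 6.38 on hypothalamus arrays, and neuron markers at 10.98 to 11.51 in hypothalamus and 4.58 to 7.10 in fat. A few arrays stood apart. Of these, the third RYGB-Fail fat array had the lowest array weight (0.1747), the highest median signal of all arrays (288). Its beta-actin 3′ to 5′ ratio, a measure of how evenly the transcript was copied, was 2.46, while the rest of the fat arrays had 12.03 to 24.3. The GAPDH 3′ to 5′ ratio of that array was 3.80, within the 2.91 to 5.89 of the other fat arrays. Skeletal muscle markers were high on the other 2 RYGB-Fail fat arrays, at 12.18 and 14.30, against 4.92 to 6.71 in Pair-Fed and 6.55 to 7.81 in RYGB-Success. The third RYGB-Success hypothalamus array had the lowest weight in its tissue (0.3308) and the lowest beta-actin ratio there, 6.65. The second Pair-Fed hypothalamus array had the highest beta-actin ratio of all arrays, 178.5, where the other hypothalamus arrays had 6.65 to 48.5.

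Ribosomal protein genes were higher in fat than in hypothalamus. With limma over all 18 arrays, 48 of the 51 tested member probe sets were higher in fat at an adjusted p under 0.05 and 0 were lower, where 37.0% of all 18625 tested probe sets were higher and 28.2% lower. The median over the 48 genes was 1.13, a 2.19-fold difference, against 0.17 over all tested probe sets. The 42 genes that passed comprised 28 of the large subunit and 14 of the small subunit, and the subunit medians over all genes were 1.10 and 1.24. With 9 fat and 9 hypothalamus arrays, the signals of 29 of the 48 genes were higher in fat without overlap and 0 were lower without overlap, where 13.8% of all tested probe sets were higher and 13.1% lower in that way. Scaling moves this comparison: the median of all tested probe sets was 0.01 after quantile normalization and -0.38 after centring each array on its median, and the members' median was then 0.83 and 0.59, still above it, with 46 and 34 probe sets called higher. In bulk tissue, fewer cells of a type and less RNA per cell cannot be told apart.

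**Figure D1:**
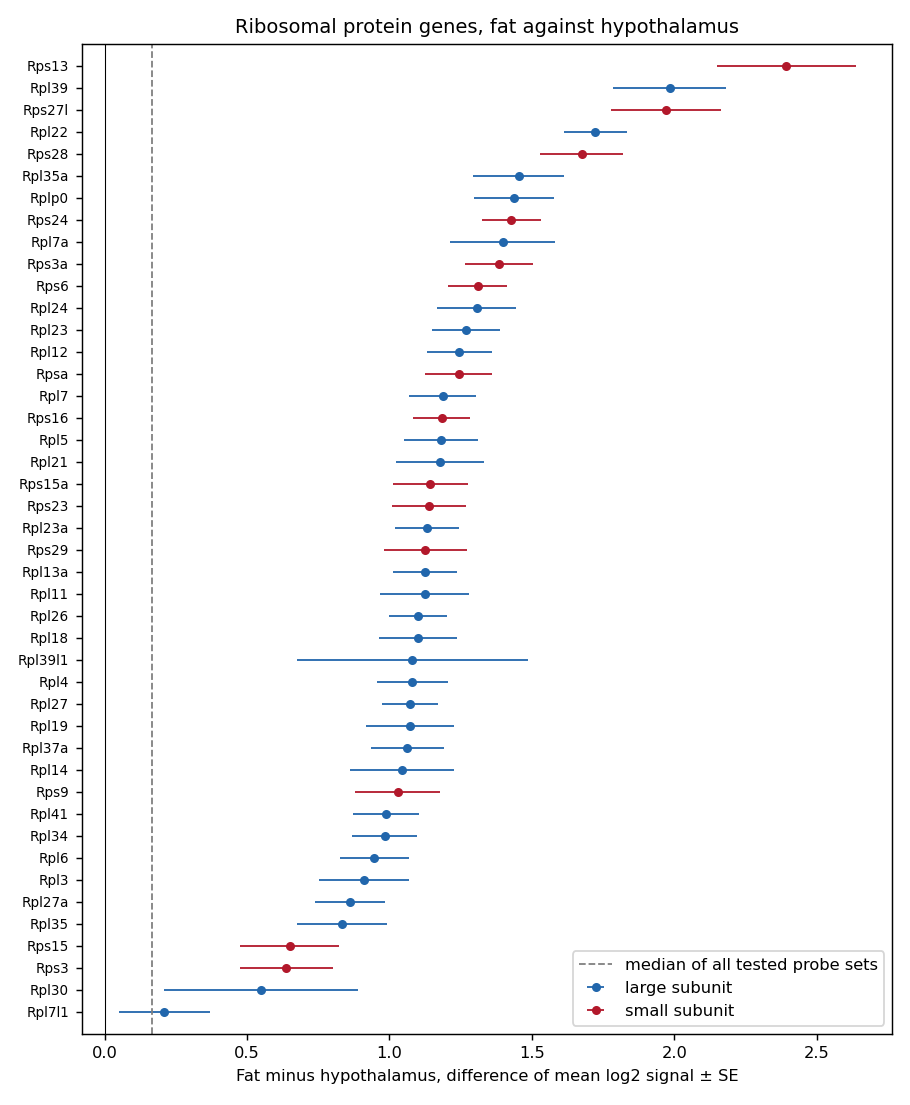
Difference of mean log2 signal between 9 fat and 9 hypothalamus arrays for the 44 tested genes, with bars for SE; blue marks the large and red the small subunit, and the dashed line is the median of all tested probe sets, 0.17. All 44 points lie to the right of 0, from Rpl7l1 at 0.21 to Rps13 at 2.39.

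Rps13, a protein of the small subunit, had the largest difference among tested members. Its signal in fat had a lowest value of 595, a median of 1020 and a highest of 3145, and in hypothalamus 107, 193 and 300.4. Every fat array lay above every hypothalamus array, and the difference was 2.39 ± 0.24 (5.25-fold, adjusted p = 1.02e-07). Another probe set, which lists Rps13 among several symbols, is not a member and is not part of this value. Rpl39, a small protein lining the tunnel through which the new peptide leaves the ribosome, ran from 992 through a median of 1335 to 2545 in fat and from 224 through 382 to 529 in hypothalamus, also without overlap (1.98 ± 0.20, adjusted p = 8.52e-08).

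Rpl22 is an RNA-binding large subunit protein that the ribosome can work without. Its signal in fat had a lowest value of 9392, a median of 9966 and a highest of 14504, and in hypothalamus the values were 2255, 3309 and 3717. The tissues did not overlap, and the difference of 1.72 ± 0.11 had the lowest adjusted p of all members, 2.34e-10. Rps27l, the p53-induced paralog, was 1.97 ± 0.19 higher in fat (adjusted p = 6.05e-08), with 944 to 3550 in fat and 413 to 614 in hypothalamus. Rps28, a small protein near the mRNA exit channel, had 1.68 ± 0.14 (adjusted p = 1.21e-08).

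The genes often used to represent the family lay nearer its middle. Rplp0, the base of the acidic stalk that recruits elongation factors, was higher in fat by 1.44 ± 0.14, and Rpsa, a small subunit protein also known as a laminin receptor, by 1.24 ± 0.12. Rps6, the substrate of S6 kinase and a readout of mTOR signalling when phosphorylated, had signals of 18457 to 39829 in fat and 9767 to 14915 in hypothalamus, without overlap, and a difference of 1.31 ± 0.10 (adjusted p = 3.07e-09). Rpl13a, which can also leave the ribosome to silence inflammatory mRNAs, had 1.12 ± 0.11, Rps29, a zinc-binding small subunit protein, 1.13 ± 0.15, and Rpl41, the shortest ribosomal protein, 0.99 ± 0.12. Rpl41 overlapped between the tissues because of the third RYGB-Success hypothalamus array, at 13877, where the other 8 hypothalamus arrays lay between 6011 and 8960. Of the alternatives run, median centring ended its call (adjusted p = 0.0556).

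The other large differences, after these, were those of Rpl35a (1.45 ± 0.16), Rps24 (1.43 ± 0.10), Rpl7a (1.397 ± 0.184) and Rps3a (1.39 ± 0.12). Mutations in the human counterparts of Rpl35a and Rps24 are known from Diamond-Blackfan anaemia. At the low end, chosen after the values were seen, were Rpl7l1, the nucleolar paralog, at 0.21 ± 0.16 with its second probe set at 0.26, Rps15 at 0.65 ± 0.17 and Rps3, a small subunit protein with a role in DNA repair, at 0.64 ± 0.16. Rpl7l1 did not pass (adjusted p = 0.263), and neither did the dim Rpl30 (0.55 ± 0.34, adjusted p = 0.165). Rpl7l1 signals were 1473 to 3310 in fat and 1564 to 2384 in hypothalamus. The tissues overlapped, with 4 of 9 fat arrays above every hypothalamus array.

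Rpl3 had its lowest fat value, and its muscle paralog Rpl3l its highest, on the fat array with the most muscle signal. On that array Rps27l lay further from the members' median and the Pair-Fed mean, at 1.31, than Rpl3, at -1.05. Rpl3, a protein of the peptidyl transferase centre, was 0.91 ± 0.16 higher in fat (adjusted p = 5.86e-05), and median centring ended the call (adjusted p = 0.125). The signals of Rpl3 in fat were 12305, 13913 and 12140 in Pair-Fed, 14982, 14521 and 18695 in RYGB-Success and 11704, 4240 and 10280 in RYGB-Fail. The second RYGB-Fail array is far below the other 8. The signals of Rpl3l in the same order were 22.9, 4.04 and 14.7, then 120.0, 83.2 and 14.4, then 260.1, 4168 and 11.5. The second RYGB-Fail array, lowest for Rpl3, is the highest for Rpl3l, and the first RYGB-Fail array is the next highest for Rpl3l. Skeletal muscle markers stood at 14.30 and 12.18 on these 2 arrays and at 7.93 on the third RYGB-Fail array. Rpl3l was below the filter and was not tested.

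**Figure D2:**
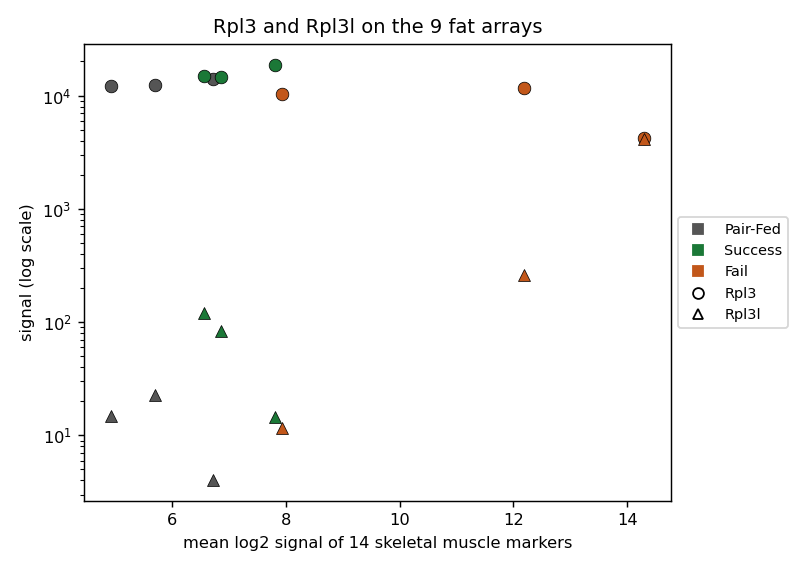
Signal of Rpl3 (circles) and Rpl3l (triangles) on a log axis against the mean log2 signal of 14 skeletal muscle markers on the 9 fat arrays, coloured by group. On the RYGB-Fail array with the most muscle signal the pair meet at 4240 and 4168; on the other arrays Rpl3 stays between 10280 and 18695.

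In fat, ribosomal protein genes had their highest values in RYGB-Success and their lowest in RYGB-Fail, without any member passing the test. In RYGB-Success against RYGB-Fail, 44 of 48 genes were higher, with a median difference of 0.59 (1.51-fold) against 0.17 over all tested probe sets. With limma, 0 of 51 member probe sets passed at an adjusted p under 0.05, as did 0.0% of all tested probe sets in either direction; at an unadjusted p under 0.05, 27 member probe sets were higher and 0 lower, where 3.43% of all were higher and 2.27% lower. The groups of 3 arrays did not overlap for 22 of 48 genes, all higher in RYGB-Success, where 5.26% of all tested probe sets were higher without overlap and 2.61% lower. The large subunit had a median of 0.56 with 31 of 33 genes higher and the small subunit 0.72 with 13 of 15 higher.

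**Figure D3:**
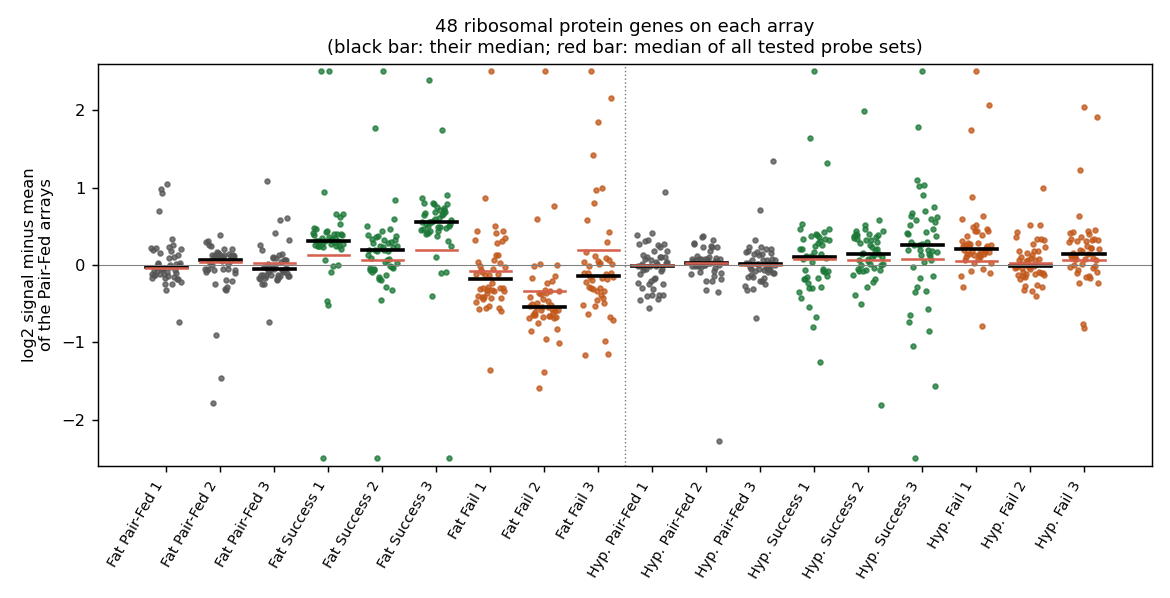
Log2 signal minus the mean of the 3 Pair-Fed arrays of the tissue for 48 ribosomal protein genes on each of the 18 arrays; black bars are the members' medians and red bars the medians of all tested probe sets, and 13 points beyond 2.5 are drawn at the edge. In fat the members' medians lie at 0.31, 0.19 and 0.55 in RYGB-Success and at -0.18, -0.54 and -0.14 in RYGB-Fail.

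By array, the members' median against the Pair-Fed mean was 0.31, 0.19 and 0.55 on the RYGB-Success fat arrays, while the median of all tested probe sets was 0.12, 0.06 and 0.20. On the RYGB-Fail fat arrays it was -0.18, -0.54 and -0.14, with -0.08, -0.34 and 0.20 for all tested probe sets. Of the 48 genes, 43, 32 and 44 lay above their Pair-Fed mean on the RYGB-Success arrays, and 15, 5 and 19 on the RYGB-Fail arrays. The members' summed signal as a share of an array's total had a Pair-Fed mean of 2.84% ± 0.0917, a RYGB-Success mean of 3.54% ± 0.53 and a RYGB-Fail mean of 2.51% ± 0.425 (SD, n = 3). The shares by array were 3.52%, 3.02% and 4.08% in RYGB-Success and 2.58%, 2.05% and 2.89% in RYGB-Fail, so these 2 groups did not overlap, and the third RYGB-Fail array lay within the Pair-Fed range of 2.76% to 2.94%.

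The gene with the lowest p in this comparison was Rpl23, a large subunit protein that can also bind the p53 regulator Mdm2. Its signals were 27660, 29393 and 30599.5 in RYGB-Success and 18760, 14958 and 15000.0 in RYGB-Fail, with 26968, 23702 and 19678 in Pair-Fed. Every RYGB-Success array lay above every Pair-Fed array, and every RYGB-Fail array below them (RYGB-Success minus RYGB-Fail 0.85 ± 0.22, adjusted p = 0.711).

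Rpl27a, Rps3a and Rpl5, which were chosen after their values were seen, had the next lowest p-values. Rpl27a had 37200, 37806 and 39630 in RYGB-Success, 32591, 28148 and 27482 in Pair-Fed and 22106, 17456 and 25520 in RYGB-Fail, again in 3 tiers without overlap (0.83 ± 0.22, adjusted p = 0.711). Rpl5, which carries the 5S ribosomal RNA into the ribosome, kept the same order, at 27252, 25845 and 30584, then 24127, 24174 and 19790, then 18102, 11630 and 18403 (0.82 ± 0.24, adjusted p = 0.768). Rps3a had 0.82 ± 0.24 (adjusted p = 0.762).

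Rps6 had signals of 35945, 35533 and 39829 in RYGB-Success and 21736, 18457 and 27641 in RYGB-Fail, against 27988, 29805 and 24974 in Pair-Fed. RYGB-Success lay above both other groups, and RYGB-Fail overlapped with Pair-Fed through the third array (0.73 ± 0.22 between the bypass groups, adjusted p = 0.79). Rpl13a showed the same pattern, with 0.77 ± 0.24 (adjusted p = 0.809). Rpl3 differed by 1.00 ± 0.35 (adjusted p = 0.827), with the second RYGB-Fail array as its lowest value.

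Rps13 had the largest tested difference, 1.06 ± 0.45 (adjusted p = 0.842), and a single array sets its size. It had 1153, 1135 and 3145 in RYGB-Success and 1020, 595 and 744 in RYGB-Fail, with 787, 746 and 1395 in Pair-Fed, so RYGB-Success overlapped Pair-Fed. The other members given in every comparison were Rpsa (0.59 ± 0.27), Rpl41 (0.57 ± 0.22), Rpl39 (0.56 ± 0.34), Rplp0 (0.55 ± 0.30), Rps29 (0.80 ± 0.30) and Rpl22 (0.27 ± 0.23), none of which passed.

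Rps27l was the tested member with the lowest difference, -0.02 ± 0.41. Its signals were 2096, 1672 and 1964 in RYGB-Success and 2137, 3550 and 944 in RYGB-Fail, against 1942, 2163 and 2179 in Pair-Fed. The RYGB-Fail arrays hold both the highest and the lowest fat value of this gene, with the highest on the array with the most muscle signal. The 3 genes with larger negative differences, Rpl28 (-2.64), Rpl3l (-2.15) and Rps4y2 (-1.66), and the largest positive one, Rpl26l1 (1.13), were below the filter.

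**Figure D4:**
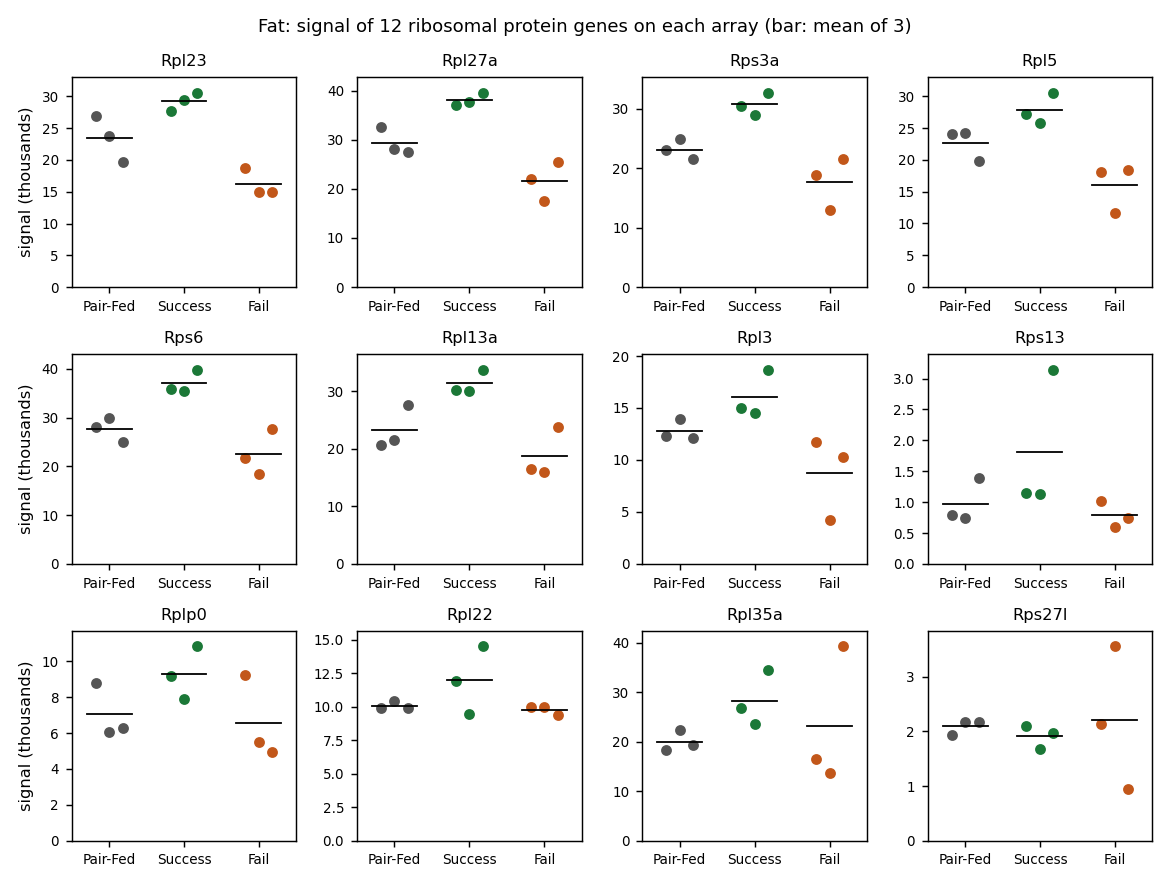
Signal (drawn divided by 1000) on each fat array for 12 ribosomal protein genes, 3 arrays a group, with bars for the mean of 3, chosen after their values were seen; each axis starts at 0. In the upper row the RYGB-Success arrays lie above all others, and in Rpl35a and Rps27l a RYGB-Fail array holds the highest value, 39213 and 3550.

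Leaving out single arrays changed this comparison. Without the third RYGB-Fail array, 11 member probe sets passed with limma, all higher in RYGB-Success, where 879 of all 18625 tested probe sets were higher and 171 lower, and the members' median was 0.66. They were those of Rps23, Rps29, Rpl27a, Rps6, Rpl13a, Rps3a, Rpl21, Rpl5, Rpl35a, Rpl23 and Rpl4, with differences from 0.80 for Rpl23 (adjusted p = 0.0471) to 1.14 for Rps29 (adjusted p = 0.0207). Without the second RYGB-Fail array, which has the most muscle signal, 0 passed, 9 were higher at an unadjusted p under 0.05, where 2.5% of all were, and the median was 0.50. Without the first RYGB-Success array 16 were, against 3.21% of all, and without the third 12, against 2.03%. The count was 29 without the second RYGB-Success array, against 2.5% of all, and 29 without the first RYGB-Fail array, against 5.35%. Leaving out the third RYGB-Fail array gave 30, against 17.4%. The unadjusted count depended on scaling: it was 2 member probe sets with quantile normalization, where 2.55% of all were higher, and 0 with median centring, where 0.966% were. Quantile normalization gave a members' median of 0.18, with 0.08 for all probe sets and 41 of 48 genes higher. Median centring gave 0.29, with -0.13 for all and 40 of 48 higher.

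Members did not move alike on the third RYGB-Fail fat array. Rpl35a had 39213 there and between 13719 and 34384 elsewhere in fat, and Rpl7a, with 21578, was also at its highest. Rpl14, a large subunit protein, had 1121 there, its lowest fat value, and so had Rps15, with 3221, and Rps27l, with 944. Among members with a mean log2 signal above 10, and relative to the members' median of that array and the Pair-Fed mean, Rpl7a was at 1.13, Rpl35a at 1.11 and Rpl21 at 0.72, and Rpl14 at -1.02, Rps27l at -1.01 and Rps15 at -0.85. These genes were chosen for these deviations. The array's low beta-actin ratio stands beside them, and its part was not tested.

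Against Pair-Fed, RYGB-Success fat had higher values and RYGB-Fail fat lower ones. In RYGB-Success minus Pair-Fed, 44 of 48 genes were higher, with a median of 0.33 against 0.11 for all tested probe sets, and the small subunit had 0.41 and the large subunit 0.31. With limma 0 of 51 member probe sets passed (0.0% of all in either direction), 1 was higher at an unadjusted p under 0.05 and 0 lower, where 1.84% of all were higher and 3.02% lower. The groups did not overlap for 20 of 48 genes, all higher, among them the untested Rpl26l1, where 10.9% of all tested probe sets were higher without overlap and 7.69% lower. Centring the arrays on their median turned the members' median to -0.04, with 19 of 48 genes higher, while the median of all probe sets went to -0.27.

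Rps16, a small subunit protein near the decoding site, was the member with the unadjusted p under 0.05 in limma (0.61 ± 0.22, adjusted p = 0.796). Its signals were 20977, 18355 and 21899 in RYGB-Success, 14356, 12906 and 12779 in Pair-Fed and 14558, 11520 and 14240 in RYGB-Fail. RYGB-Success stood above both other groups, which overlapped each other. The other largest values were those of Rps13 (0.78), Rps29 (0.55) and Rpl12 (0.49). Rps6 had 0.43 ± 0.22, Rpl13a 0.44 ± 0.24, Rpl3 0.32 ± 0.35 and Rpl22 0.23 ± 0.23, none of which passed.

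In RYGB-Fail minus Pair-Fed, 40 of 48 genes were lower, with a median of -0.25 against -0.09 for all tested probe sets. With limma 0 member probe sets passed (0.0% of all in either direction), and at an unadjusted p under 0.05, 0 were higher and 1 lower, where 1.42% of all were higher and 1.27% lower. The groups did not overlap for 10 of 48 genes, all lower in RYGB-Fail, against 4.33% of all tested probe sets lower and 2.57% higher without overlap. The lowest tested values were those of Rpl3 (-0.68 ± 0.35), Rpl39 (-0.55 ± 0.34), Rpl14 (-0.53 ± 0.38) and Rpl23 (-0.53 ± 0.22), each with an adjusted p = 1.0. The dimmer probe set of Rpl14 gave 0.205, in the other direction. At an unadjusted p under 0.05, 10 member probe sets were lower without the first RYGB-Fail array, where 6.19% of all were, and 15 without the third, where 8.25% were, with 0 members passing after adjustment. Without the second RYGB-Fail array the members' median was -0.12, with 0.04 for all tested probe sets. Under quantile normalization it was -0.04, with -0.11 for all. Under median centring it was -0.32, with -0.16 for all and 43 of 48 genes lower. Both comparisons share the Pair-Fed arrays, so their values are not independent.

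Markers of other cell types differed between the fat groups alongside the members. All 14 skeletal muscle markers had lower values in RYGB-Success than in RYGB-Fail. Epithelium markers were higher in 14 of 14 genes, with levels of 5.61, 9.58 and 9.15 on the RYGB-Success arrays, 4.75 to 7.03 in RYGB-Fail and 5.46 to 5.55 in Pair-Fed. Lymphocyte markers were higher in 11 of 11 genes, with 7.74, 7.97 and 10.96 against 7.20 to 7.997 in RYGB-Fail, and blood cell markers in 6 of 6, with 8.30, 8.63 and 9.39 against 6.63 to 7.44. Fibroblast markers were higher in 0 of 11 genes. Adipocyte markers were higher in 8 of 10 genes and macrophage markers in 3 of 10. Of all tested probe sets, 62.6% were higher. Above the filter were 13 muscle, 8 epithelium, 9 lymphocyte, 4 blood cell, 10 fibroblast, 9 adipocyte and 9 macrophage genes. Of these tested markers 0 passed, and the rest were not tested. The first RYGB-Success array, with an epithelium level of 5.61 and a lymphocyte level of 7.74, had 43 of 48 members above their Pair-Fed mean; the third, highest for lymphocyte and blood cell markers, had 44. Without the third RYGB-Success array the members' median was 0.51 against RYGB-Fail and 0.23 against Pair-Fed. The part of these markers in the members' differences was not tested beyond these values.

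Within the hypothalamus the members' medians differed less between groups than in fat. Single tested genes ranged more widely in RYGB-Success minus Pair-Fed, from -0.62 to 1.81 (the dim Rpl30) in hypothalamus and from -0.14 to 0.78 in fat. The hypothalamus median in RYGB-Success minus Pair-Fed was 0.17, with 33 of 48 genes higher, against 0.05 over all tested probe sets. In RYGB-Fail minus Pair-Fed it was 0.12, with 36 of 48 higher, against 0.03. In RYGB-Success minus RYGB-Fail it was 0.03, with 25 of 48 higher, against 0.01. With limma 0 of 51 member probe sets passed in each of these 3 comparisons, where 0.00537% of all passed in either direction for RYGB-Success against Pair-Fed, 0.0% for RYGB-Fail against Pair-Fed, and 0.0% higher and 0.00537% lower for RYGB-Success against RYGB-Fail. The member share of signal was 1.36% ± 0.03 in Pair-Fed, 1.51% ± 0.0586 in RYGB-Success and 1.47% ± 0.0764 in RYGB-Fail (SD, n = 3). Median centring turned the RYGB-Success minus Pair-Fed median to -0.07, with -0.19 for all tested probe sets.

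At an unadjusted p under 0.05, RYGB-Success minus Pair-Fed had 9 member probe sets higher and 1 lower, where 6.94% of all were higher and 6.2% lower, and without overlap 13 genes were higher and 4 lower, against 10.8% and 7.28%. These counts turned with scaling: median centring gave 1 member probe set higher and 8 lower at an unadjusted p under 0.05, where 1.95% of all were higher and 14% lower. Without the first Pair-Fed array, 2 were higher, against 5.44% of all. For RYGB-Fail minus Pair-Fed the counts were 1 higher and 0 lower, against 1.81% and 0.58%, and without overlap 6 and 2, against 5.81% and 3.36%. For RYGB-Success minus RYGB-Fail they were 1 and 1, against 2.23% and 3.79%, and without overlap 5 and 5, against 5.84% and 4.69%.

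Rpl30, a large subunit protein known to bind its own transcript in yeast, had the largest tested hypothalamus difference, on a dim probe set. Its signals were 61.7, 63.6 and 30.6 in Pair-Fed, 154, 196 and 171 in RYGB-Success and 90.4, 45.7 and 116 in RYGB-Fail. All RYGB-Success arrays lay above all others (1.81 ± 0.46 against Pair-Fed, adjusted p = 0.215). In fat the same probe set overlapped between all groups. Other probe sets that list Rpl30 among several symbols are not members.

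Rpl35, Rpl41 and Rpsa followed, and single arrays weigh on the differences of Rpl35 and Rpl41. Rpl41 had 6011, 6966 and 7499 in Pair-Fed and 8960, 8157 and 13877 in RYGB-Success (0.56 ± 0.20, adjusted p = 0.293), and Rpl35 had 3155, 6000.2 and 5206 against 5993, 6606 and 9356 (0.64 ± 0.24, adjusted p = 0.312). The third RYGB-Success array is the highest for both. For Rpl35 the first Pair-Fed array, at 3155, is also far below the other Pair-Fed arrays, and the groups overlap. Rpsa had 3347, 3043 and 3395 in Pair-Fed, 4503, 4434 and 5028 in RYGB-Success and 3321, 3836 and 3749 in RYGB-Fail, with RYGB-Success above both (0.51 ± 0.17, adjusted p = 0.262). Its other probe sets gave 0.56 and 0.08, so they did not all show this difference. The probe sets with 0.51 and 0.56 are marked as cross-hybridising, and the one with 0.08 is not.

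On the lower side, Rps13 had -0.62 ± 0.35 (adjusted p = 0.466) and Rpl14 -0.52 ± 0.23 (adjusted p = 0.367) in RYGB-Success minus Pair-Fed, and Rps15a -0.61 ± 0.21 (adjusted p = 0.784) against RYGB-Fail. Rps15a had 3785, 4078 and 2565 in RYGB-Success, 4454, 5813 and 5396 in RYGB-Fail and 4972, 4359 and 4541 in Pair-Fed. RYGB-Success is below both groups, with the lowest value on the third array. Rpl24, a late-joining protein of the large subunit, had 3071 on that array against 5799 to 7019 on the other 8.

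The third RYGB-Success hypothalamus array had the widest spread of members, with an interquartile range of 0.64 for their differences from Pair-Fed, where the other 5 bypass arrays of the tissue had 0.28 to 0.51. Among members with a mean log2 signal above 10, and relative to its own member median, Rpl41 was at 0.77, Rpl35 at 0.76 and Rpl4 at 0.65, and Rpl24 at -1.31, Rps15a at -1.11 and Rpl14 at -0.99. These too were chosen for their deviation. This array had the lowest beta-actin ratio of its tissue, and the part of that in the spread was not tested.

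The bypass effects were then compared between the tissues as interactions over all 18 arrays. The RYGB-Success minus RYGB-Fail difference was larger in fat than in hypothalamus for 45 of 48 genes, with a median of 0.62 against 0.14 for all tested probe sets, and RYGB-Fail minus Pair-Fed was lower in fat for 44 of 48, with -0.42 against -0.10. For RYGB-Success minus Pair-Fed the median was 0.19, with 32 of 48 genes higher, against 0.05. With limma 0 member probe sets passed in any of the 3, as did 0.0% of all tested probe sets, so no member's bypass effect was shown to differ between fat and hypothalamus. At an unadjusted p under 0.05, 16 member probe sets were higher in the first of these, where 4.01% of all were, 2 were lower in the second, against 1.67%, and 3 were higher in RYGB-Success minus Pair-Fed, against 3.81%. The largest in RYGB-Success minus RYGB-Fail were Rpl14 (1.28 ± 0.45), Rps13 (1.23 ± 0.60) and Rps15a (1.20 ± 0.32), each with an adjusted p of at least 0.755. The dimmer probe set of Rpl14 gave -0.17 ± 0.80, so the direction for that gene depended on the probe set.

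The members varied together across fat arrays. The correlation of a gene's log2 signal with the mean of the other members over the 9 fat arrays had a median of 0.78, and 23 of 48 genes exceeded 0.8, against a median of 0.20 and 1.90% of 18574 other probe sets set against the members' mean. The genes most like the family were Rps16 (0.94), Rps24 (0.92), Rps6 (0.91), Rps3a (0.91) and Rps15a (0.91). The least like were Rps4y2 (-0.62), Rpl3l (-0.61), Rpl28 (-0.41) and Rps27l (-0.39), of which Rps27l alone is above the filter. In hypothalamus the median was 0.37 against 0.04, with Rpl12 (0.85) and Rpl26 (0.76) highest and Rps13 (-0.55) lowest. The arrays of a tissue share their groups and each array's scaling, so these correlations are a description. Rps6 had 0.91 in fat and -0.18 in hypothalamus.

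Where a gene had several probe sets they gave the same direction between the tissues, but not always between treatments. In RYGB-Fail minus Pair-Fed in fat, Rpl14 gave -0.53 and 0.205, and Rpsa -0.40, -0.17 and 0.14. In RYGB-Success minus Pair-Fed in hypothalamus, Rpl7l1 gave -0.31 and 0.15. The 3 probe sets of Rpsa gave 1.18, 1.36 and 1.24 between the tissues, and the 2 of Rpl7 gave 1.10 and 1.19. For Rpl3 the bright probe set gave 1.00 and the dim one 0.35 in RYGB-Success minus RYGB-Fail in fat. For Rpl14 in hypothalamus, RYGB-Success minus RYGB-Fail, the bright probe set gave -0.45 and the dim one 0.76, so its direction depended on the probe set.

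Other genes of ribosome production and translation are given by list, and each count between the tissues is to be read against the 37.0% of all tested probe sets that were higher in fat and the 28.2% that were lower. The initiation, biogenesis and RNA polymerase I counts of higher genes lie near or somewhat above that share, and those of mTOR and Myc control genes lie below it. Of 13 tested elongation and TOP-mRNA genes, 10 were higher in fat and 2 lower, led by Eef2k, the kinase that inhibits elongation factor 2, at 2.01 ± 0.22 and Eef1a1, the general elongation factor, at 1.20 ± 0.14. Of 28 initiation genes, 12 were higher and 2 lower, with Eif1b at -1.61 ± 0.18 and Eif3m at 0.67 ± 0.13. Of 42 ribosome biogenesis genes, 20 were higher and 3 lower, with Nolc1, a nucleolar chaperone, at -1.25 ± 0.15 and Nop58, a small nucleolar RNP protein, at 1.07 ± 0.16. RNA polymerase I genes had 5 of 10 higher, among them Ubtf, its activator on ribosomal DNA, at 1.10 ± 0.24. The named genes have adjusted p-values of 0.000595 or less.

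The mitochondrial ribosomal proteins, which build the separate ribosome of that organelle, had counts below the shares of all tested probe sets, 37.0% higher and 28.2% lower. Of 70 tested, 8 were higher in fat and 18 lower, with a median of -0.22, and Mrps2 (-1.11 ± 0.14), Mrps25 (-1.32 ± 0.17) and Mrps14 (-1.64 ± 0.28) had the lowest p-values. In RYGB-Success minus RYGB-Fail in fat their median was -0.16 with 27 of 70 higher, beside 0.59 and 44 of 48 for the cytosolic genes. Over all tested probe sets the median was 0.17 and 62.6% were higher. Among mTOR and Myc control genes 6 of 23 were higher and 5 lower between the tissues, with Eif4ebp1, an mTOR-controlled repressor of translation, at 2.601 ± 0.222 (adjusted p = 9.93e-09). Rack1, a scaffold on the small subunit, had 0.92 ± 0.14 (adjusted p = 1.24e-05).

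In RYGB-Success minus RYGB-Fail in fat 0 genes of these lists passed. Over all tested probe sets 62.6% were higher, with a median of 0.17, and the counts that follow are to be read against that. Ribosome biogenesis genes were higher in 33 of 42, with a median of 0.28, and RNA polymerase I genes in 10 of 11, with 0.27. Elongation and TOP-mRNA genes had a median of 0.23 with 11 of 13 higher. Hnrnpa1, an RNA-binding protein, was at 0.80 ± 0.24, Eef1g, an elongation factor subunit, at 0.61 ± 0.21 and Heatr1, a factor of ribosomal RNA processing, at 1.69 ± 0.48 (adjusted p = 0.762 to 0.827). Eef1a2, the elongation factor of muscle and neurons, was at -2.20 ± 0.71 (adjusted p = 0.817), beside the higher muscle markers of RYGB-Fail. Initiation genes had a median of 0.06 with 20 of 28 higher, and mTOR and Myc control genes 0.16 with 18 of 27 higher. Both medians lie below that of all tested probe sets.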

How the data were processed

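Rat RNA from fat and hypothalamus was amplified (WT-Ovation) and hybridised to Affymetrix arrays, per the labels. The authors deposited 1 linear intensity for each probe set and array; the submitters' processing notes name MAS5 and GCOS, whose versions are not given in the sources used here. The members and lists were chosen with earlier results of these data known.

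Intensities were turned into log2 values with no pseudocount. Testing was limited to the brightest 60% of probe sets (18625, by their mean over the arrays of a fit), using the lmFit and eBayes (trend) functions of limma 3.58.1, run under R 4.3.3, 2-sided, over the 9 arrays of a tissue or, for tissue differences and interactions, all 18, and Benjamini-Hochberg adjustment over them. The probe set with the highest mean stood for each gene. Genes were named by a rule: the 10 largest differences where over 30 members passed, the 4 largest in each direction where fewer than 8 passed, anchor members such as Rplp0 and Rps6, and up to 3 genes per list by lowest p; others are said to be chosen after their values were seen. The fit was tested on simulated data. The 57 array controls were left out. Promoter sequences came from RefSeq (GRCr8). Alternatives were a pseudocount of 50, other filters and scalings, array weights, a replicate block and leaving out arrays. Summaries and plots used Python 3.11.15, pandas 2.3.3 and matplotlib 3.10.9.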

Additional observations from a re-analysis of the deposited data

How the results depend on the processing

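The tissue difference kept its direction under every alternative run, with 34 to 50 member probe sets called higher, and the members' median was 0.83 with quantile normalization and 0.59 with median centring. Between treatments, 0 members were called under any alternative but 1: in fat, RYGB-Success minus RYGB-Fail gave 0 to 11 called when leaving out arrays in turn, 11 without the third RYGB-Fail array.

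The members' medians moved with scaling. In fat they were 0.163, -0.042 and 0.183 with quantile normalization for RYGB-Success minus Pair-Fed, RYGB-Fail minus Pair-Fed and RYGB-Success minus RYGB-Fail. With median centring they were -0.041, -0.323 and 0.292 in the same order. In hypothalamus, median centring gave -0.065, 0.008 and -0.096 in the same order. For the interactions of RYGB-Success with Pair-Fed and with RYGB-Fail, quantile normalization gave -0.053 and 0.198 and median centring 0.051 and 0.447. For the interaction of RYGB-Fail with Pair-Fed, quantile normalization gave -0.3 and median centring -0.377. Leaving out arrays gave 0.50 to 0.75 for RYGB-Success minus RYGB-Fail in fat, 0.47 to 0.72 for its interaction and -0.49 to -0.29 for that of RYGB-Fail with Pair-Fed.

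Over all probe sets, array weights called 39, 35 and 26 in the 3 fat comparisons, where the fit without weights called 0, and 6 each in hypothalamus for RYGB-Success against Pair-Fed and against RYGB-Fail, where it called 2 and 1. For the interactions array weights gave 11, 17 and 5, against 0. RYGB-Success minus Pair-Fed in hypothalamus had 1 with the upper 40% filter and 6 with median centring, and RYGB-Success minus RYGB-Fail there had 2 with a pseudocount of 50, with no filter, with quantile normalization and with median centring. Leaving out arrays gave 0 to 22, 0 to 44 and 0 to 1050 in fat, 1 to 64 and 0 to 6 in hypothalamus for the same 2 comparisons, and 0 to 41, 0 to 24 and 0 to 119 for the interactions. The array left out at the highest counts was the third RYGB-Fail fat array (44, 1050, 24 and 119), the first RYGB-Success fat array (22 and 41) or the second RYGB-Success hypothalamus array (64 and 6). The cause of these changes was not tested.

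Correlations of same-numbered arrays ran from -0.163 to 0.29 within tissues and from -0.0607 to 0.146 between fat and hypothalamus of a treatment. Whether same-numbered arrays share an animal is not stated, and low correlations cannot decide it. The main fit treated the arrays as unpaired. With the replicate block, 47 member probe sets were called between tissues, 0 members between treatments, 2 of all probe sets in hypothalamus for RYGB-Success minus RYGB-Fail and 1 for the RYGB-Fail interaction.

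The mean log2 signal of large minus small subunit probe sets, which is no measure of relative abundance, was -0.481 in fat and -0.184 in hypothalamus with 1 probe set a gene, -0.277 and 0.04 over all member probe sets, and 0.164 and 0.526 without probe sets marked as cross-hybridising. Its sign depends on which probe sets enter, and nothing is read from it. With 3 arrays a group and dim paralog probe sets, small differences were not detectable.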

Other observations

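The 36 ribosomal probe sets that carry several symbols, and so name no gene here, were set beside the members after the data were seen. Between the tissues 34 of them were higher in fat and 0 lower with limma at an adjusted p under 0.05, with a median of 1.07, where 37.0% of all tested probe sets were higher. In fat, RYGB-Success minus RYGB-Fail was above 0 in 36 of 36, with a median of 0.56, 16 of them at an unadjusted p under 0.05, where 3.43% of all tested probe sets were, and 0 after adjustment. RYGB-Success minus Pair-Fed in fat had a median of 0.31 with 33 of 36 higher, and RYGB-Fail minus Pair-Fed -0.30 with 3 of 36 higher. In hypothalamus the medians were 0.14, 0.10 and 0.01 for RYGB-Success minus Pair-Fed, RYGB-Fail minus Pair-Fed and RYGB-Success minus RYGB-Fail. These probe sets lie on the same arrays as the members and can share transcripts with them, so they are not independent of them.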
